A study of Rattus norvegicus with 9 samples.

Results

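The interleukin and interleukin receptor genes of the rat dorsal root ganglion (DRG) are described here, taken as every gene of the deposited table whose symbol is Il followed directly by a digit. The rule used no measured value and found 74 of the 20413 genes in the table, of which 32 encode ligands or their antagonists, 41 encode receptors, receptor subunits or decoys, and 1, Il4i1, encodes an enzyme. RNA-Seq was carried out on ipsilateral L4-6 DRGs, the ganglia where sensory neurons of the hind limb have their cell bodies, from male Sprague Dawley rats aged 8 to 10 weeks. The Sham group, named Con in the labels, was anesthetized and had an opened ring placed at the ankle that left blood flow intact. The CPIP (chronic post-ischemia pain) group had a tight ring at the ankle for 3 h followed by reperfusion, which models complex regional pain syndrome type I. The CPIP+EA group had the same injury and 100 Hz electroacupuncture of both hind limbs once daily for 10 days. DRGs of all groups were taken on day 10, and RNA of 3 rats per group gave 3 libraries per group. No group had EA without CPIP, so CPIP+EA against CPIP compares injured rats, while in CPIP+EA against Sham injury and EA cannot be told apart.

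Interleukins are secreted proteins that carry signals between immune cells, glia and neurons. IL-1 family cytokines signal through receptors that recruit Myd88, while most others bind a private receptor chain paired with a shared one and signal through Janus kinases and STAT proteins. Decoy receptors and receptor antagonists bind a ligand or a receptor without passing the signal on. In the DRG these systems are known for sensitizing or exciting nociceptive and itch neurons, and for recruiting macrophages after nerve or tissue injury.

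Values are FPKM, that is, fragments per kilobase of a transcript relative to all those mapped in a library, and levels of different genes can be compared on this scale because it is per length. Differences were tested as log2(FPKM + 0.5) with limma for the 17187 genes with a mean of at least 0.1 FPKM, which 56 of the 74 members reached. The threshold was a p adjusted by Benjamini-Hochberg of less than 0.01, together with a change of 1.5-fold or more in either direction. A log2 fold change on this scale understates the change of genes near 0.5 FPKM or below. Since no read counts come with FPKM, the error of counting cannot be given for single values. In whole ganglia, fewer cells of a type and less RNA per cell cannot be told apart.

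The comparison of CPIP with Sham asks which genes differed after injury. There, 1 of the 56 tested members passed the threshold, Il13ra1, the IL-13 receptor subunit that pairs with Il4r, and it was 1.62 times the Sham mean. Of all genes tested, 0.355% passed. Il24, a cytokine of the IL-10 family, and Il6, the ligand of the IL-6 receptor, were near 0 in Sham and higher in each CPIP and CPIP+EA library. With EA, 0 members passed the threshold against CPIP, where 0% of all genes passed, and 2 members, Il13ra1 and Il24, passed it against Sham, beside 0.483% of all genes. The sequences upstream of these 3 genes are shown because Il13ra1 and Il24 were the members called, and Il6 with EA against Sham had the largest estimate of the others. Each is the 200 bases before the transcription start in RefSeq, build GRCr8, read 5′ to 3′ on the strand of the gene. Il13ra1 spans chrX:120214405-120214604 on the plus strand, Il24 spans chr13:44910761-44910960 on the minus strand and Il6 spans chr4:5894576-5894775 on the minus strand. Capitals mark the motifs found.
Il13ra1: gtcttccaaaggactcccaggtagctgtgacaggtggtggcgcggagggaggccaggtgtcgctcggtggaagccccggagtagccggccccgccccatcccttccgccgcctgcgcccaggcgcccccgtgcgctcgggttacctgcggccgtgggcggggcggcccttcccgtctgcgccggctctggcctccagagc
Il24: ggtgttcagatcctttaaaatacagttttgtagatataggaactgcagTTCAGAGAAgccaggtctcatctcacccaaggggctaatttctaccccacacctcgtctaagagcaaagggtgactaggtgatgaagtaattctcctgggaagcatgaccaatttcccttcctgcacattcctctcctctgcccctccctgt
Il6: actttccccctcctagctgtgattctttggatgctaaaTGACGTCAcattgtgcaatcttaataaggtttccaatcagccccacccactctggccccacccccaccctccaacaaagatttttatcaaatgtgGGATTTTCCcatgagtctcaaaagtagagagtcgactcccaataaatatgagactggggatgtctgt

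A set of 4 motifs were searched on both strands in the 250 bases before the start, the AP-1 site TGANTCA, the cAMP response element TGACGTCA, the NF-kB site GGANTTTCC and the STAT site TTCNNNGAA. The Il24 sequence held 1 match, to the STAT motif, at positions -152 to -144 from the start. The Il6 sequence held the cAMP response element at -162 to -155 and the NF-kB motif at -67 to -59. None of the 4 motifs was found in the Il13ra1 window. Of the 33469 promoters of the RefSeq set, 7.67% held the STAT motif, 1.59% the cAMP response element, 1.08% the NF-kB motif and 6.34% the AP-1 motif. Among the 65 members with a promoter in that set, 6, 2, 3 and 5 held them, in the same order. A match describes letters in a window and was not tested as a binding site.

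Il6st, the shared signal transducer of the IL-6 family, had the highest level of the members, with a mean of 43.2 FPKM over the 9 libraries, and stood above 89.7% of all genes. Il33, an alarmin of the IL-1 family, followed at 40.3 FPKM, and Il34, a ligand of the macrophage receptor Csf1r, at 25.9 FPKM. Next came Il11ra1, the private IL-11 receptor chain, at 25.1 FPKM and Il31ra, the IL-31 receptor chain known from itch neurons, at 21.3 FPKM. The ranges of Il6st and Il33 overlapped, as did those of Il34, Il11ra1 and Il31ra. Read within each library, Il34 was above Il31ra in all 9. The order of every other pair within either set changed between libraries. The other members above 10 FPKM were Il13ra1, Il16, Il10rb and Il3ra. In all, 9 members had a mean of at least 10 FPKM, 29 of at least 1 FPKM, and 18 stayed under 0.1 FPKM.

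**Figure D1:**
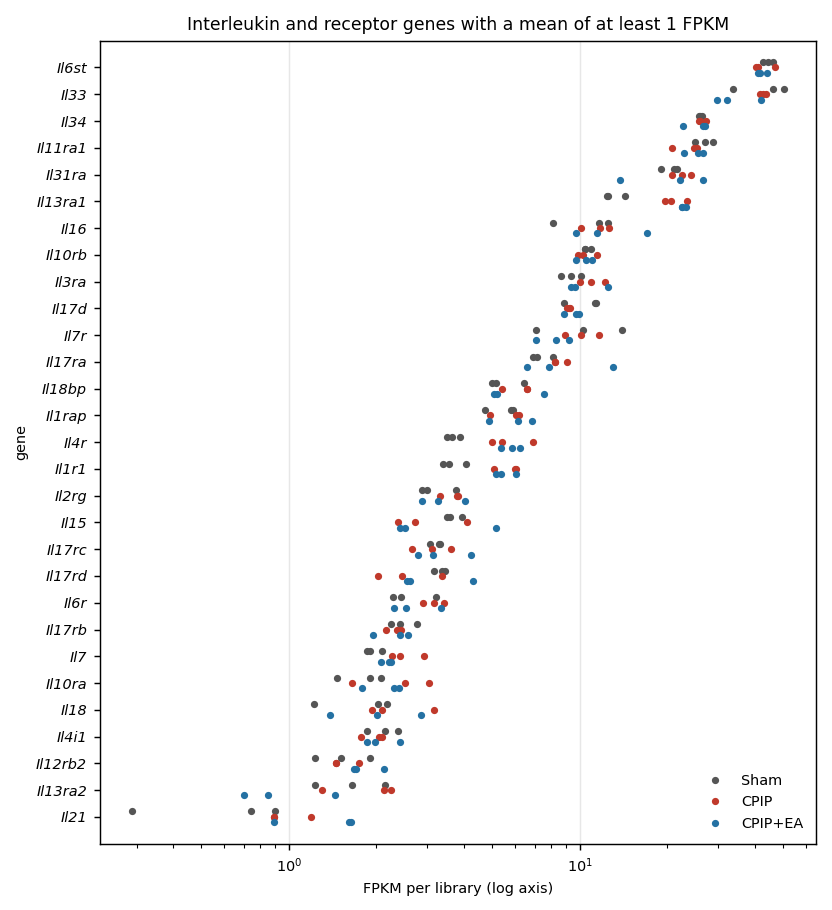
FPKM of the 29 members with a mean of at least 1 FPKM, on a log axis, with 1 dot per library (Sham grey, CPIP red, CPIP+EA blue). Il6st and Il33 lie at the top, and of the genes above 10 FPKM only Il13ra1 has its grey dots apart from the red and blue ones.

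The libraries of the 3 most abundant members overlapped between all groups. Il6st was 46.3, 44.3 and 42.5 FPKM in the Sham libraries, 40.5, 46.9 and 41.2 FPKM in CPIP, and 41.7, 41.0 and 44.1 FPKM in CPIP+EA, and all 3 groups overlapped. Its log2 fold change was -0.05 after CPIP, with a 95% interval from -0.21 to 0.10. Il34 was 25.8, 25.6 and 26.3 FPKM in Sham, 25.7, 27.3 and 25.9 FPKM in CPIP, and 22.7, 26.5 and 26.9 FPKM in CPIP+EA, again overlapping, with an interval from -0.14 to 0.18 after CPIP. Il33 was 33.8, 46.3 and 50.3 FPKM in Sham, 41.8, 43.8 and 42.8 FPKM in CPIP, and 29.6, 32.1 and 42.0 FPKM in CPIP+EA. A pair of its CPIP+EA libraries lay below all others, and its log2 fold change of -0.32 with EA against CPIP had a limma p of 0.0747 before adjustment and a 95% interval from -0.68 to 0.04. The 4 fibroblast markers were lowest in the same libraries, at sums of 515 and 428 FPKM in CPIP+EA 1 and 2 against 654 to 1040 FPKM elsewhere, and their part in the Il33 values was not tested.

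Among the receptors of IL-4 and IL-13, Il13ra1 passed the threshold and Il4r and Il13ra2 did not. Il13ra1 (gene 252963) was 14.4, 12.6 and 12.4 FPKM in the Sham libraries, 19.7, 20.6 and 23.5 FPKM in CPIP, and 23.1, 22.5 and 22.6 FPKM in CPIP+EA. Every CPIP and CPIP+EA library lay above every Sham library, while the injured groups overlapped. Means were 13.1 ± 1.08 FPKM in Sham, 21.3 ± 1.96 FPKM in CPIP and 22.7 ± 0.348 FPKM in CPIP+EA (SD, n = 3). The log2 fold change was 0.68 (SE 0.0813, limma adjusted p 0.00552) after CPIP and 0.77 (SE 0.0813, limma adjusted p 0.00203) with EA against Sham. Between CPIP+EA and CPIP it was 0.10, with a 95% interval from -0.09 to 0.28. Il13ra1 was the 1 member among 61 genes past the threshold after CPIP, and with EA against Sham it was among 83.

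Both calls of Il13ra1 depended on single libraries and on settings of the fit. After CPIP its adjusted p was 0.0363 without Sham 2, 0.0317 without Sham 3, 0.0136 without CPIP 1, 0.0274 without CPIP 2, 0.0203 without CPIP 3, 0.0122 without CPIP+EA 1 and 0.0159 without CPIP+EA 2. With EA against Sham it was 0.0154 without Sham 2, 0.0126 without Sham 3, 0.0116 without CPIP+EA 1 and 0.0157 without CPIP+EA 2. The call after CPIP also ended on the TPM scale (adjusted p 0.0134), without the trend (0.0129), with only the 2 groups compared (0.0239) and with a replicate block (0.0322), and that with EA against Sham ended with a replicate block (0.0154). In all, the calls held in 9 and 15 of 20 alternatives. Over the 20 alternatives of each comparison the estimate stayed between 0.60 and 0.74 after CPIP and between 0.74 and 0.84 with EA against Sham.

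Il4r (gene 25084), the chain that binds IL-4 and pairs with Il13ra1, was 3.50, 3.87 and 3.64 FPKM in Sham, 4.98, 5.43 and 6.94 FPKM in CPIP, and 5.87, 5.37 and 6.23 FPKM in CPIP+EA. No injured library reached down to the Sham range, but the test did not pass. The log2 fold change was 0.58 after CPIP (SE 0.122, limma adjusted p 0.0862) and 0.60 with EA against Sham (limma adjusted p 0.0554). Il13ra2, the decoy that binds IL-13, was 1.65, 1.23 and 2.14 FPKM in Sham, 2.12, 2.25 and 1.30 FPKM in CPIP, and 0.85, 0.70 and 1.44 FPKM in CPIP+EA. Its groups overlapped in each comparison, and the log2 fold change with EA against CPIP was -0.68 (limma p 0.0193, adjusted p 0.996). The ligands Il4 and Il13 were almost undetected. Il4 was above 0 only in CPIP+EA 3, at 0.14 FPKM, and Il13 only in Sham 2 and CPIP+EA 1, at 0.15 and 0.29 FPKM.

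Tslp, an epithelial cytokine known to act on sensory neurons and on type 2 immune cells, is no member by its symbol but belongs to the list of signalling partners and pairs with Il7r. It was 1.14, 1.31 and 0.80 FPKM in Sham, 4.18, 4.86 and 3.94 FPKM in CPIP, and 5.87, 4.49 and 5.06 FPKM in CPIP+EA, so every injured library lay above Sham. Its log2 fold change was 1.62 after CPIP (limma adjusted p 0.00132) and 1.84 with EA against Sham (limma adjusted p 0.000522), and it passed in all 20 alternatives of both. The groups overlapped for both of its receptor chains. Il7r was 7.08, 10.2 and 14.0 FPKM in Sham, 10.1, 8.91 and 11.6 FPKM in CPIP, and 8.27, 9.16 and 7.07 FPKM in CPIP+EA, with all groups overlapping. The interval of Il7r after CPIP ran from -0.47 to 0.49, and that of the second chain, Crlf2, from -0.17 to 0.19. Il7, the other ligand of Il7r, was 2.09, 1.86 and 1.91 FPKM in Sham, 2.26, 2.42 and 2.92 FPKM in CPIP, and 2.24, 2.21 and 2.08 FPKM in CPIP+EA. The CPIP libraries of Il7 lay above both other groups, with a log2 fold change of 0.30 after CPIP (limma p 0.0232, adjusted p 0.449) and -0.17 with EA against CPIP (limma p 0.148).

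The Il13ra1 and Il4r differences were set beside the 8 macrophage markers, since macrophages carry these receptor chains too. All 8 were above 0 in each library, and their summed level was 50.1 to 63.5 FPKM in Sham, 53.9 to 66.7 FPKM in CPIP and 53.7 to 81.1 FPKM in CPIP+EA, with overlap of all groups. Of the 8, 2 lay above Sham in every injured library. Cx3cr1 was 1.96 to 2.74 FPKM in Sham, 3.26 to 4.27 FPKM in CPIP and 3.26 to 4.17 FPKM in CPIP+EA, and Aif1 was 16.9 to 17.4, 18.8 to 19.7 and 17.9 to 30.7 FPKM. The 6 T cell markers summed to 14.8 to 17.2 FPKM in Sham, 15.4 to 19.2 FPKM in CPIP and 13.9 to 17.6 FPKM in CPIP+EA. Cd4 made up most of each sum, at 12.65 to 17.55 FPKM, and no other of the 6 exceeded 1.19 FPKM. The 6 mast cell markers summed to 13.6 to 22.9 FPKM over the 9 libraries. Most of that was Kit, at 10.4 to 14.4 FPKM, and no other of the 6 exceeded 3.29 FPKM. The sums therefore say little about the other markers of either list. The part of these cells in the differences was not tested.

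**Figure D2:**
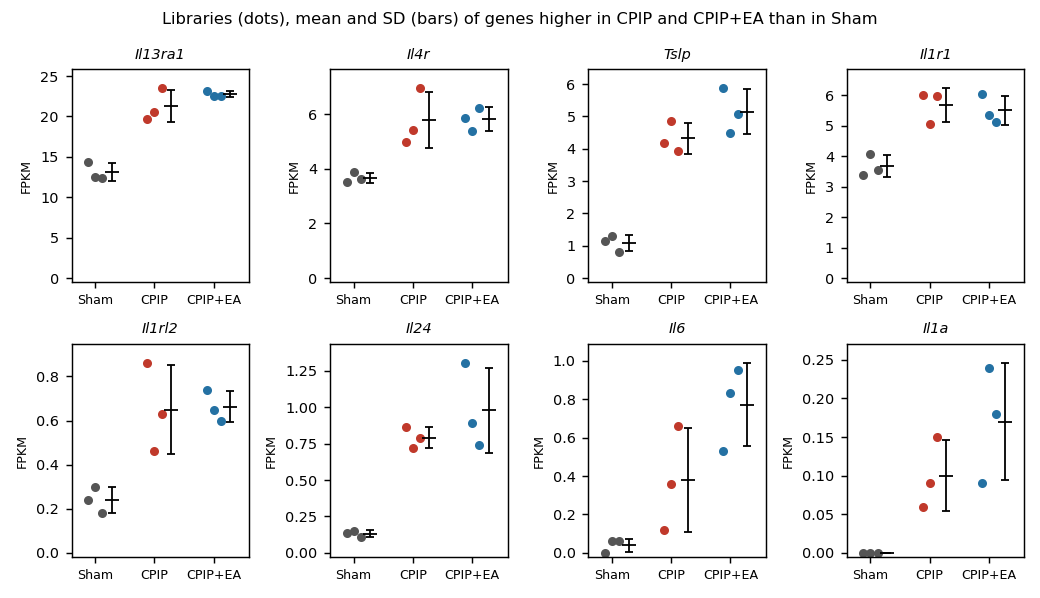
FPKM in each library (dots) with the mean and SD (bars, n = 3) for 7 members and their partner Tslp, by group, on linear axes from 0. In all 8 panels the CPIP and CPIP+EA dots lie above every Sham dot, and the CPIP and CPIP+EA dots overlap.

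Il24 (gene 170819), known as a cytokine of injured and inflamed tissue, was 0.14, 0.15 and 0.11 FPKM in the Sham libraries, 0.86, 0.72 and 0.79 FPKM in CPIP, and 1.30, 0.89 and 0.74 FPKM in CPIP+EA. The lowest injured library stood well above the highest Sham library, and the injured groups overlapped. Means were 0.133 ± 0.0208 FPKM in Sham, 0.790 ± 0.07 FPKM in CPIP and 0.977 ± 0.29 FPKM in CPIP+EA (SD, n = 3). The ratio of the CPIP to the Sham mean was 5.93, from values that are low in all groups. On the log2 scale the difference was 1.03 (SE 0.146, limma adjusted p 0.0148), short of the threshold, and 1.20 with EA against Sham (limma adjusted p 0.0046), past it. Whether these differed was tested directly as CPIP+EA against CPIP, where the difference was 0.18 with a 95% interval from -0.15 to 0.51.

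The call of Il24 with EA also turned on single libraries and settings. The adjusted p was 0.0281 without Sham 1, 0.0244 without Sham 2, 0.0269 without Sham 3, 0.0117 without CPIP 1, 0.0118 without CPIP 2, 0.0101 without CPIP 3 and 0.0215 without CPIP+EA 2. The call also ended with quantile normalization (adjusted p 0.0127), with only the 2 groups compared (0.0267) and with a replicate block (0.0157), and it held in 9 of 19 alternatives. In CPIP against Sham, a pseudocount of 0.1 (adjusted p 0.00521) or leaving out CPIP+EA 1 (0.0058) brought Il24 past the threshold. Il20ra and Il22ra1, which pair with Il20rb to form its receptors, had means of 0.0867 and 0.0333 FPKM over the 9 libraries, and Il20rb had 0.657 FPKM. The related ligands Il20 and Il19 were listed at 0 in 3 and 5 of the 9 libraries, and Il19 was at 0 in all 3 Sham libraries. Il10 itself, the anti-inflammatory founder of this family, was above 0 in 3 libraries only, at 0.18 and 0.09 FPKM in CPIP and 0.04 FPKM in CPIP+EA.

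Il6 (gene 24498), which signals through Il6r and Il6st, was 0, 0.06 and 0.06 FPKM in Sham, 0.12, 0.36 and 0.66 FPKM in CPIP, and 0.53, 0.83 and 0.95 FPKM in CPIP+EA. The Sham values were 0 or the smallest nonzero value of this gene, 0.06 FPKM, so no ratio is given. Its Sham mean of 0.04 FPKM lies under the filter, which Il6 passed only through the injured libraries, so a difference from Sham was built into its being tested, and its p-values against Sham and its place in the counts of higher members are a description. Sham did not overlap with either injured group, while CPIP 3 lay within the CPIP+EA range. The log2 fold change was 0.66 after CPIP (SE 0.224, limma adjusted p 0.389), 0.56 with EA against CPIP (limma p 0.0336, adjusted p 0.996) and 1.22 with EA against Sham (SE 0.224, limma adjusted p 0.0359). None of these passed the threshold. With 1 library left out, the Il6 estimate ran from 0.44 to 0.89 after CPIP and from 0.33 to 0.78 with EA against CPIP. Its private receptor Il6r was 2.43, 3.22 and 2.29 FPKM in Sham, 3.43, 3.15 and 2.89 FPKM in CPIP, and 2.54, 2.31 and 3.34 FPKM in CPIP+EA, and all groups overlapped. Among other members of the family, Il11ra1 was 28.7, 25.0 and 26.9 FPKM in Sham, 24.7, 20.7 and 25.4 FPKM in CPIP, and 22.9, 25.5 and 26.6 FPKM in CPIP+EA. It overlapped in each comparison, and its ligand Il11 averaged 0.249 FPKM.

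In the IL-1 family, a pair of receptors lay above Sham in every injured library, while the groups overlapped for the ligand Il1b. Il1r1 (gene 25663), the signalling receptor of IL-1, was 3.40, 4.08 and 3.55 FPKM in Sham, 6.03, 5.06 and 5.98 FPKM in CPIP, and 6.05, 5.35 and 5.14 FPKM in CPIP+EA. All injured libraries lay above Sham, with a log2 fold change of 0.57 after CPIP (SE 0.108, limma adjusted p 0.0566) and 0.53 with EA against Sham (limma adjusted p 0.0568), which did not pass. Il1rl2 (gene 171106), the receptor of the IL-36 cytokines, was 0.24, 0.30 and 0.18 FPKM in Sham, 0.86, 0.46 and 0.63 FPKM in CPIP, and 0.74, 0.65 and 0.60 FPKM in CPIP+EA. It separated from Sham in the same way, at log2 fold changes of 0.62 (limma adjusted p 0.133) and 0.65 (limma adjusted p 0.0783). Il1rap, the accessory chain that both receptors need, ranged from 4.73 to 6.87 FPKM over the 9 libraries with overlap of all groups. Of the IL-36 ligands, Il36b averaged 0.461 FPKM, and Il36g was above 0 in 2 libraries.

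Il1b, the central inflammatory IL-1 ligand, was 0.41, 0.64 and 1.16 FPKM in Sham, 0.64, 0.46 and 1.52 FPKM in CPIP, and 1.18, 0.55 and 1.06 FPKM in CPIP+EA. The ranges of all 3 groups overlapped, and the interval after CPIP ran from -0.61 to 0.85 on the log2 scale, which is too wide to say that the groups were alike. Il1a, the second IL-1 ligand, was listed at 0 in all 3 Sham libraries, at 0.06, 0.09 and 0.15 FPKM in CPIP, and at 0.09, 0.24 and 0.18 FPKM in CPIP+EA. It lay under the filter and was not tested. Il18, another ligand of this family, was 2.17, 1.22 and 2.03 FPKM in Sham, 2.09, 3.17 and 1.93 FPKM in CPIP, and 2.86, 1.39 and 2.02 FPKM in CPIP+EA, overlapping throughout. Its receptor chain Il18r1 ranged from 0.14 to 0.22 FPKM in Sham and from 0.27 to 0.42 FPKM in CPIP without overlap, but with a limma p above 0.05.

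The brakes of IL-1 signalling, the decoy receptor Il1r2 and the receptor antagonist Il1rn, were highest in a single library. Il1r2 was 0.09, 0.27 and 0.29 FPKM in Sham, 0.28, 0.37 and 0.36 FPKM in CPIP, and 0.48, 0.56 and 1.08 FPKM in CPIP+EA. All 3 CPIP+EA libraries lay above the other groups, with a log2 fold change of 0.50 against CPIP (limma p 0.0316, adjusted p 0.996) and 0.73 against Sham (limma adjusted p 0.147). Il1rn was 0.56, 0.69 and 0.58 FPKM in Sham, 0.50, 1.04 and 0.73 FPKM in CPIP, and 0.68, 0.97 and 1.93 FPKM in CPIP+EA. Its CPIP and CPIP+EA libraries overlapped, and its log2 fold change of 0.38 against CPIP had a limma p of 0.169. Both genes peaked in CPIP+EA 3, which also held the highest neutrophil signal. The 8 neutrophil markers, all above 0 in each library, summed to 49.6 to 146 FPKM in Sham, 32.7 to 243 FPKM in CPIP, and 64.0, 164 and 607 FPKM in CPIP+EA 1, 2 and 3. Without CPIP+EA 3, the estimate against CPIP was 0.29 for Il1r2 and 0.09 for Il1rn. The part of neutrophils in these values was not tested.

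CPIP+EA 3 was the highest library for 16 of the 56 tested members, and for 20.3% of all genes tested. It held the highest values of Il16, a leukocyte chemoattractant, at 17.0 FPKM against 8.11 to 12.7 FPKM elsewhere, of Il17ra, the shared IL-17 receptor chain, at 13.0 FPKM against 6.61 to 9.06 FPKM, and of Il15, a ligand of lymphocytes, at 5.15 FPKM against 2.38 to 4.10 FPKM. The other libraries of these genes were as follows. Il16 was 8.11, 11.7 and 12.5 FPKM in Sham, 11.8, 12.7 and 10.1 FPKM in CPIP, and 9.71 and 11.4 FPKM in CPIP+EA 1 and 2. Il17ra was 8.11, 7.12 and 6.93 FPKM in Sham, 8.24, 9.06 and 8.25 FPKM in CPIP, and 7.88 and 6.61 FPKM in CPIP+EA 1 and 2, so its CPIP libraries lay above Sham by a small gap, with a log2 fold change of 0.19 (limma p 0.357). Il15 was 3.58, 3.95 and 3.51 FPKM in Sham, 2.38, 2.71 and 4.10 FPKM in CPIP, and 2.41 and 2.52 FPKM in CPIP+EA 1 and 2. Leaving out CPIP+EA 3 turned the estimate of CPIP+EA against CPIP from 0.05 to -0.22 for Il17ra, from 0.11 to -0.12 for Il16 and from 0.07 to -0.24 for Il15, and none of these passed a test. The same library had the lowest Il31ra, at 13.8 FPKM, against 21.1, 19.0 and 21.6 FPKM in Sham, 20.8, 22.4 and 24.1 FPKM in CPIP, and 22.1 and 26.5 FPKM in CPIP+EA 1 and 2. The 4 markers of itch neurons, all above 0, had their lowest sum there, 73.1 FPKM against 87.9 to 110 FPKM elsewhere. Of the 4, Sst, which made up most of the sum, and Cysltr2 were lowest in this library, and Nppb and Osmr were not. Low values there were not particular to itch neuron markers. Of the 8 sensory neuron markers, Rbfox3 (27.5 FPKM), Scn9a (32.2 FPKM) and Nefh (868 FPKM) were also lowest in CPIP+EA 3. Calca, Tubb3, Prph, Uchl1 and Isl1 were not. The part of cell composition was not tested.

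**Figure D3:**
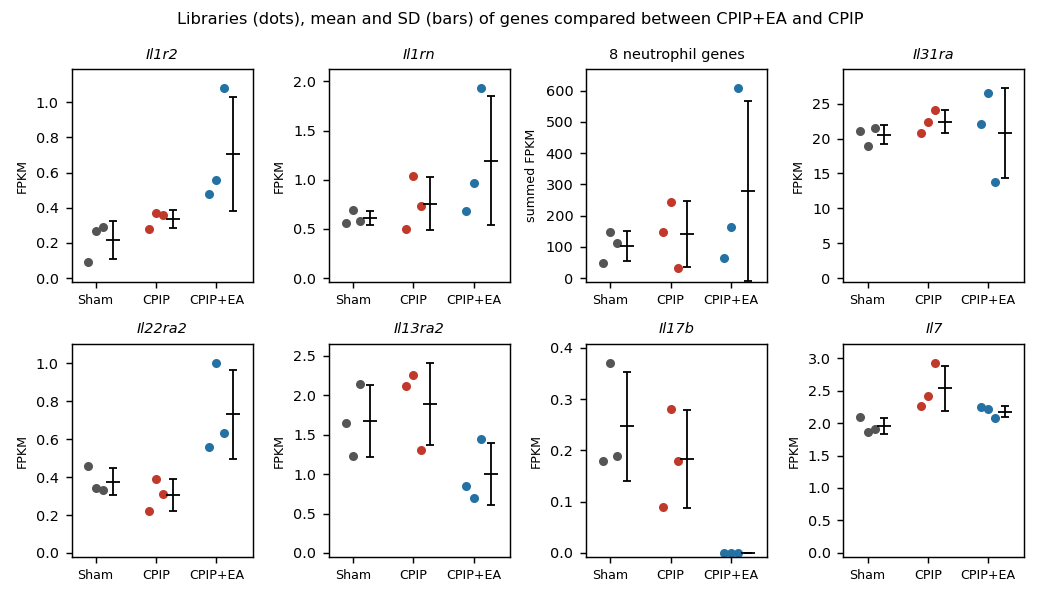
FPKM in each library (dots) with the mean and SD (bars, n = 3) for 7 members and for the summed 8 neutrophil markers, by group, on linear axes. In the Il1r2, Il1rn and neutrophil panels the highest dot is the third CPIP+EA library, the lowest Il31ra dot is that library too, and Il17b is at 0 in all 3 CPIP+EA libraries.

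EA was compared with CPIP to ask which genes differed with treatment among injured rats. Of all genes tested, 0 passed the threshold with limma, a share of 0%, and 382 higher and 356 lower genes had an unadjusted p under 0.05. Among the 56 members 3 were higher and 3 lower at that level, beside 2.22% and 2.07% of all genes, and each of the 6 had an adjusted p of 0.996. The higher members were Il22ra2, Il1r2 and Il6, and the lower ones Il17b, Il13ra2 and Il2ra. Libraries did not overlap for 3 higher members, Il22ra2, Il1r2 and Il18rap, and for 3 lower ones, Il17b, Il7 and Il2ra, which is 5.36% of members each way beside 4.84% and 3.4% of all genes. Without CPIP+EA 3, 1 member was higher and 3 were lower at an unadjusted p under 0.05.

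Il22ra2 (gene 444986), the soluble decoy of IL-22, was 0.46, 0.34 and 0.33 FPKM in Sham, 0.22, 0.39 and 0.31 FPKM in CPIP, and 0.56, 1 and 0.63 FPKM in CPIP+EA. Each CPIP+EA library lay above both other groups, at a log2 fold change of 0.60 against CPIP (SE 0.158, limma p 0.00432). Il17b (gene 116472), an IL-17 family ligand, was 0.18, 0.37 and 0.19 FPKM in Sham, 0.09, 0.28 and 0.18 FPKM in CPIP, and listed at 0 in all 3 CPIP+EA libraries. It passed the filter only through the Sham and CPIP libraries, so its p-values are a description too. No fold is given for it, and the limma p was 0.0139 against CPIP and 0.00345 against Sham (adjusted p 0.128). Il2ra, the alpha chain of the IL-2 receptor known from regulatory and activated T cells, was 0.15, 0.12 and 0.12 FPKM in Sham, 0.23, 0.20 and 0.31 FPKM in CPIP, and 0.08, 0.19 and 0.08 FPKM in CPIP+EA. Its CPIP libraries lay above both other groups, by 0.01 FPKM at the closest point to CPIP+EA, with a log2 fold change of -0.28 (limma p 0.0444).

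Over all tested members, the comparison of CPIP with Sham was described by counts. At an unadjusted p under 0.05, 7 of the 56 members, or 12.5%, were higher and 0 lower, beside 4.61% and 4.06% of all genes. The count of lower members was 1 with no filter (beside 11 higher) and without Sham 2, CPIP 2 or CPIP 3 (beside 6, 8 and 5 higher). The 7 were Il13ra1, Il24, Il1r1, Il4r, Il1rl2, Il6 and Il7. Libraries did not overlap for 11 higher members, or 19.6%, and 0 lower ones, beside 7.98% and 7.9% of all genes. The further 4 were Il2ra, Il18r1, Il17ra and Il27ra. The median log2 fold change was 0.04 over members and -0.01 over all genes, and 35 members had a positive estimate and 21 a negative one. By role, 3 of 19 tested ligands and 4 of 36 receptors or decoys were among the 7. Members are not independent of each other, and the shares describe these libraries.

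For CPIP+EA against Sham, which shares its Sham libraries with the comparison above, 9 members were higher and 3 lower at an unadjusted p under 0.05, beside 6.59% and 5.63% of all genes. The higher ones were Il13ra1, Il24, Il6, Il4r, Il1r1, Il1rl2, Il1r2, Il21 and Il22ra2, and the lower ones Il17b, Il25 and Il13ra2. Libraries did not overlap for 8 higher and 3 lower members, beside 8.87% and 7.32% of all genes. Il21, a T cell cytokine, was 0.29, 0.74 and 0.90 FPKM in Sham, 0.89, 1.19 and 0.89 FPKM in CPIP, and 1.61, 0.89 and 1.64 FPKM in CPIP+EA. Its groups overlapped in each comparison, and the log2 fold change was 0.73 (limma adjusted p 0.256). Il25, an IL-17 family ligand tied to type 2 immunity, was 0.50, 0.76 and 0.38 FPKM in Sham, 0.25, 0.51 and 0.46 FPKM in CPIP, and 0.15, 0.20 and 0.30 FPKM in CPIP+EA. The CPIP+EA libraries of Il25 lay below all Sham libraries, at a log2 fold change of -0.54 (limma adjusted p 0.245).

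**Figure D4:**
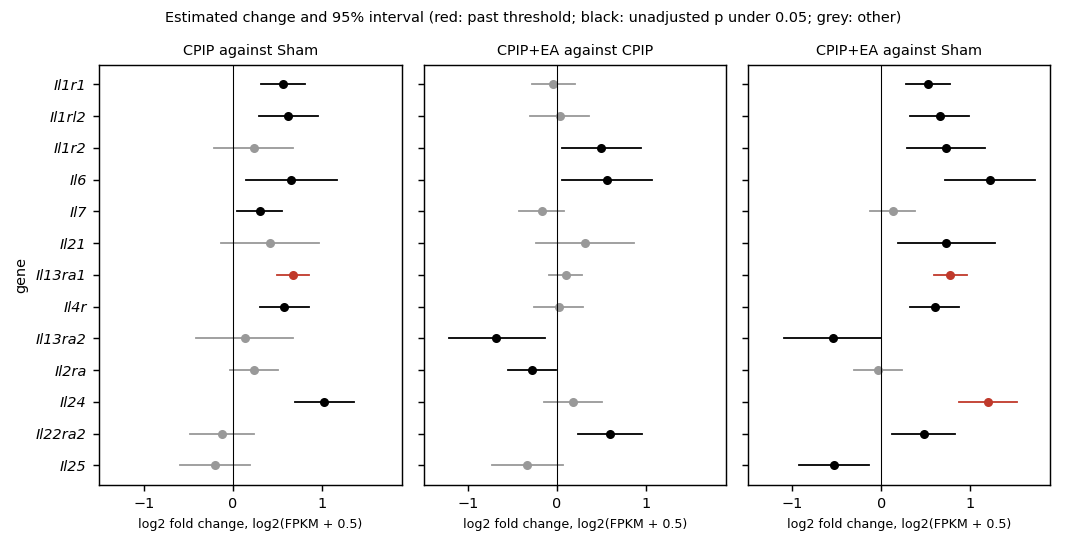
Log2 fold change (dot) and 95% interval (line) on the log2(FPKM + 0.5) scale for 13 members with an unadjusted limma p under 0.05 in at least 1 of 3 comparisons. Red marks the threshold passed (Il13ra1 after CPIP, Il13ra1 and Il24 with EA against Sham), black an unadjusted p under 0.05 and grey the rest, and Il17b is left out because it is at 0 in CPIP+EA.

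Other abundant members gave values in every library with no separation of groups. Il10rb, the shared chain of IL-10 family receptors, was 11.0, 10.5 and 10.4 FPKM in Sham, 9.88, 11.5 and 10.3 FPKM in CPIP, and 11.1, 9.69 and 10.5 FPKM in CPIP+EA, with a 95% interval from -0.19 to 0.17 after CPIP. Il3ra, the IL-3 receptor chain, was 8.63, 9.37 and 10.1 FPKM in Sham, 12.2, 11.0 and 10.0 FPKM in CPIP, and 9.61, 9.37 and 12.6 FPKM in CPIP+EA. Its CPIP libraries overlapped Sham only at the lowest of them. Il17d, the most abundant IL-17 family ligand, was 11.3, 8.85 and 11.4 FPKM in Sham, 9.06, 9.26 and 9.22 FPKM in CPIP, and 9.72, 9.99 and 8.82 FPKM in CPIP+EA, and all groups overlapped. A further 42 members were not singled out by the rule. Of these, 26 were tested, their log2 fold changes after CPIP lay between -0.32 for Il17rd and 0.30 for Il10ra, and the lowest limma p was 0.0606. With EA against CPIP they lay between -0.10 for Il10ra and 0.35 for Il20, with a lowest limma p of 0.0586, for Il18rap. Il20 (limma p 0.118) had means of 0.07 FPKM in Sham, 0.0467 FPKM in CPIP and 0.213 FPKM in CPIP+EA. It passed the filter only through the CPIP+EA libraries. A higher value with EA was thus built into its being tested, and its estimate is a description. The 18 members under the filter were 13 ligands and 5 receptors, none with a value over 0.29 FPKM.

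**Figure D5:**
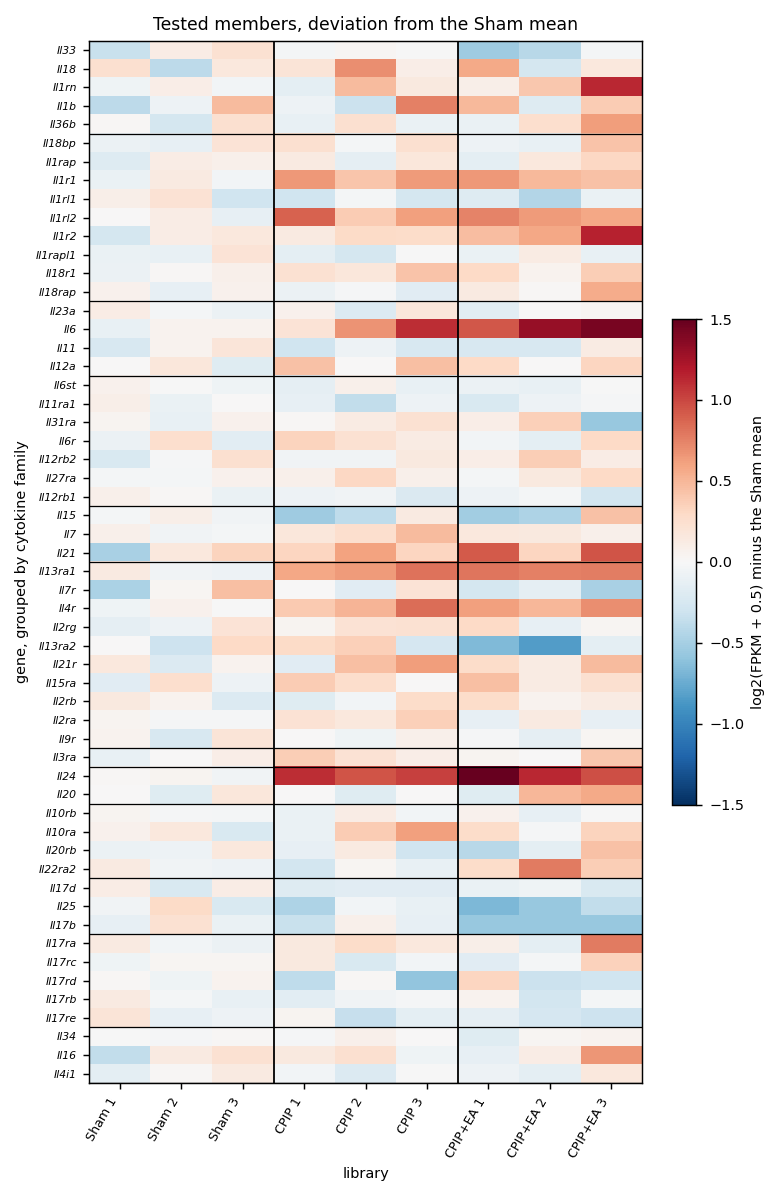
Log2(FPKM + 0.5) of the 56 tested members in each of the 9 libraries, minus the mean of the 3 Sham libraries (red above, blue below), with horizontal lines between cytokine families. Il13ra1, Il4r, Il1r1, Il1rl2, Il24 and Il6 are red in all 6 injured libraries, and CPIP+EA 3 is the highest library for 16 of the 56 members.

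A list of 36 partner genes of interleukin signalling (Janus kinases, STATs, their inhibitors, the Myd88 arm, NF-kB parts, shared chains and the ligands Tslp and Ebi3) was tested in full. It was chosen with earlier results of these data known, so its shares beside all genes are a description. Tslp, the ligand described above, was the 1 of 36 past the threshold after CPIP and with EA against Sham, and 0 passed between CPIP+EA and CPIP. At an unadjusted p under 0.05, 6 partners, or 16.7%, were higher and 0 lower after CPIP, beside 4.61% and 4.06% of all genes, namely Tslp, Jak2, Stat4, Stat5a, Nfkbia and Myd88. With EA against CPIP, 0 of the 36 were higher and 0 lower, beside 2.22% and 2.07% of all genes, and with EA against Sham 5, or 13.9%, were higher and 0 lower, beside 6.59% and 5.63%. Jak2, a kinase used by IL-13, IL-6 and IL-3 receptors, was 9.52, 11.1 and 10.2 FPKM in Sham, 11.6, 12.1 and 13.0 FPKM in CPIP, and 13.3, 13.5 and 13.9 FPKM in CPIP+EA. The 3 groups of Jak2 did not overlap, with a log2 fold change of 0.24 after CPIP (limma adjusted p 0.312), 0.14 with EA against CPIP (95% interval from -0.02 to 0.31, limma p 0.0838) and 0.38 with EA against Sham (limma adjusted p 0.0441). Stat6, the STAT of IL-4 and IL-13, had an interval from -0.17 to 0.10 after CPIP. Socs3, an inhibitor induced by IL-6 family signals, had means of 4.80 ± 1.21, 5.89 ± 0.394 and 7.74 ± 1.74 FPKM in Sham, CPIP and CPIP+EA (SD, n = 3), with an adjusted limma p of 0.201 for the outer pair.

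The tissue label was checked against markers. All 8 sensory neuron markers were above 0 in each library, at a sum of 5487 to 6993 FPKM, as were the 5 satellite glia markers at 3598 to 4185 FPKM and the 5 Schwann cell markers at 4632 to 11786 FPKM. Endothelial markers summed to 17.5 to 27.6 FPKM, B cell ones to 1.74 to 17.0 FPKM and erythroid ones to 246 to 2364 FPKM, all 3 being highest in CPIP+EA 3. FPKM summed to between 445647 and 482940 per library, and members took 0.0617 to 0.0679% of it.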

How the data were processed

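Libraries were made from poly(A) RNA of ipsilateral L4-6 DRGs and read as single-end reads of 50 bases. The authors filtered reads with SOAPnuke 1.5.2, removing adaptors, reads with more than 10% unknown bases and reads of low quality, and from the rest made the deposited table, with 9 FPKM columns of 2 decimals. The authors' log2 ratios, p-values and Q-values between groups stand in the same table and were not used. The aligner, genome build and annotation are not given in the sources used here. FPKM holds no counts, so the reads behind a value are not known from the table, no count test was run, and precision rests on how many libraries there are.

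Groups came from the sample labels. The tests used limma 3.58.1 (R 4.3.3, eBayes with a trend) on log2(FPKM + 0.5), with all 9 libraries in 1 fit, two-sided, adjusted by Benjamini-Hochberg over the 17187 genes with a mean of at least 0.1 FPKM. The threshold was the study's. The fit was tested on simulated data. The labels do not say that each library is 1 rat, so p-values measure the spread between libraries. Values per library are given for members past the threshold or with an unadjusted p under 0.05 in any comparison, for the 5 ligands and 8 receptors of highest mean, and for 14 members named by the study or known from sensory ganglia. The members, lists and this rule were chosen with earlier results of these data known. All 74 members matched RefSeq GRCr8 by identifier, and 65 had a promoter there. Listed family members without a row, such as Il2 and Il17a, were not analysed here. The alternatives tried were pseudocounts of 0.1 and 1, omitting the filter or raising it to a mean of 1 FPKM, a TPM scale, quantile normalization, median centring, no or a robust trend, a replicate block, a fit of 2 groups, an adjusted p under 0.05, and each library left out. The adjusted p under 0.05 was counted without the fold rule. Tables were made with Python 3.11.15, numpy 2.4.6 and pandas 2.3.3, and figures with matplotlib 3.10.9.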

Additional observations from a re-analysis of the deposited data

How the results depend on the processing

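After CPIP, the 1 member past the threshold became 2 with a pseudocount of 0.1 or with an adjusted p under 0.05, and 0 on the TPM scale, without the trend, with only the 2 groups compared or with a replicate block. For CPIP+EA against Sham the 2 members became 1 with a mean of at least 1 FPKM (which left Il24 untested), with quantile normalization or with only the 2 groups compared, and 0 with a replicate block. The deviations of same-numbered libraries correlated from -0.236 to 0.297, and those of differently numbered libraries from -0.223 to 0.28. These ranges are alike and do not decide whether replicate numbers mark pairs. The labels do not name pairs, so the replicate block is given only as an alternative. Leaving out 1 library gave 0 to 1 members after CPIP and 0 to 2 with EA against Sham. At an unadjusted p under 0.05 the 7 members after CPIP became 12 with no filter and 4 with a mean of at least 1 FPKM. The 6 of CPIP+EA against CPIP became 1 and the 12 of CPIP+EA against Sham became 4 with that mean, by fewer members tested, and leaving out 1 library gave 2 to 6 for the former. Partner genes past the threshold with EA against Sham went from 1 to 2 at an adjusted p under 0.05. Where not stated, the cause was not tested. For members and partner genes with an unadjusted p under 0.05 in the comparison, 674 alternative values kept direction and call, 26 lost the call, 2 gained it and 0 changed direction. Over all 56 tested members, leaving out 1 library turned the sign of at least 1 estimate for 16 members after CPIP, 31 with EA against CPIP and 18 with EA against Sham. The number of reads behind each value is not in the table used, so counting error could not be set beside the spread between libraries.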
